A study of Mus musculus with 6 samples.

Results

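Genes of the motile cilium were examined in microglia-targeted ribosome pulldowns of mouse hippocampus. The members were the protein-coding genes whose symbols carry a name stem of axonemal parts, namely Dnah, Dnai or Dnaic, Cfap, Tekt, Rsph, Drc and Spag followed by a number, plus Ccdc39, Ccdc40, Ccdc65, Ccdc103, Ccdc113, Ccdc114 and Ccdc151. The table held 54 such genes among 15388, and all 54 entered the test. The rule itself uses names and gene type and no measured value. The table, however, held only genes that the authors had kept by a read threshold. The members were also chosen with earlier results of these data known. Among them, 48 encode parts of the axoneme or factors that assemble it, and 6 carry a matching name but are known mainly for work outside the axoneme or have no settled place in it.

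The mice carried Cx3cr1-Cre/Ert2+ and NuTRAP+, so that tamoxifen switched on a Cre recombinase under the promoter of Cx3cr1, a chemokine receptor of microglia and other macrophages. In recombined cells the NuTRAP construct puts a green fluorescent tag on ribosomes. All the mice received tamoxifen at about 3 months of age by intraperitoneal injection, and both fractions carried the same alleles and the same treatment. Hippocampus of animals 201, 207 and 208 was homogenized, part of the cleared lysate was kept as Input, and ribosomes caught with an antibody to the tag gave the Positive fraction. Each of the 3 animals gave 1 library per fraction, 6 in all, and every comparison below is Positive against Input. The unbound fraction was not analysed here.

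A motile cilium is a beating hair on the cell surface, built on an axoneme of microtubule doublets around a central pair of microtubules. Outer and inner dynein arms are motors that slide neighbouring doublets, radial spokes and the central apparatus pass control signals to them, and the nexin-dynein regulatory complex (N-DRC) links the doublets so that sliding becomes bending. In the brain, ependymal cells that line the ventricles carry tufts of motile cilia that move cerebrospinal fluid. The choroid plexus epithelium lies beside them. Microglia and most neurons lack beating cilia, although neurons carry an immotile primary cilium.

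Libraries held 14879734 to 17757918 reads. The pulldown carried its target: all 15 microglial markers were higher in Positive, with a median log2 fold change of 4.69, while all 10 oligodendrocyte markers were lower (median -2.58) and 3 of 12 neuronal markers were higher and none lower (median 0.10). All 10 endothelial markers were higher too (median 1.88). No gene of the lists used here was at 0 in any library. Values below are scaled reads, that is, reads divided by the size factor of the library, and values of the 3 animals are always given in the order 201, 207 and 208. Reads carried no molecular identifiers, and each error given is an SD over animals or an SE from the fit. Both fractions of an animal came from the same lysate, so a difference between them does not measure cell numbers or RNA per cell. In bulk RNA the cells that gave a read cannot be told apart.

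Where motile cilia genes differed between the fractions, most were lower in the microglia-targeted fraction than in Input. At an adjusted p under 0.05 in edgeR, 22 of the 54 genes differed between fractions, against 46.0% of all 15343 genes tested. Of the 54, 19 (35.2%) were lower in Positive, where the share of all genes was 22.0%, and 3 (5.56%) were higher, where the share of all genes was 23.9%. The median log2 fold change of the 54 was -0.27 (all genes -0.013), so that the middle gene kept 83.1% of its Input level, and 42 of the 54 fold changes were below 0. Without the Positive of animal 201 this median was -0.53. Every Positive library was below every Input library for 20 of the 54 genes, against 27.6% of all genes, and above for 4, against 28.9%. Among the 48 genes with an axonemal or assembly role, 16 (33.3%) were lower, 1 (2.08%) was higher and the median was -0.36.

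The filter had a part in these counts. Genes were kept where scaled reads passed 20 in every library of at least 1 fraction. Of the 54, 47 passed through both fractions (15 lower, 3 higher, median -0.21), none through Positive alone, and 7 through Input alone, namely Spag16, Cfap126, Cfap161, Dnah7a, Cfap70, Dnaic2 and Cfap61. Those 7 had to lie lower in at least 1 Positive library, and 4 of them were called lower. Of all genes tested, 14132 passed through both fractions, with 2977 lower (21.1%), 3265 higher and a median of -0.0066. The share lower among the 47 was 31.9%. All 7 genes that passed through Input alone have an axonemal or assembly role. Over the other 41 of the 48 such genes, 12 (29.3%) were lower, 1 was higher and the median was -0.21, as over the 47. By role, counts of 6 to 8 genes are read against the 22.0% of all genes called lower. The shares were 37.5% for the outer arm, 37.5% for the inner arm, 16.7% for the ruler and N-DRC group, 25.0% for the radial spokes, 25.0% for the central apparatus and 57.1% for the doublet wall. Those of the spokes, central apparatus and ruler group thus lay near or under the background. The number of genes called lower also moved with the libraries used. It was 10 without the Input of animal 201, 12 without the Input of 208 and 12 without the Positive of 207. The number called higher was 1 without the Input of 208.

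**Figure D1:**
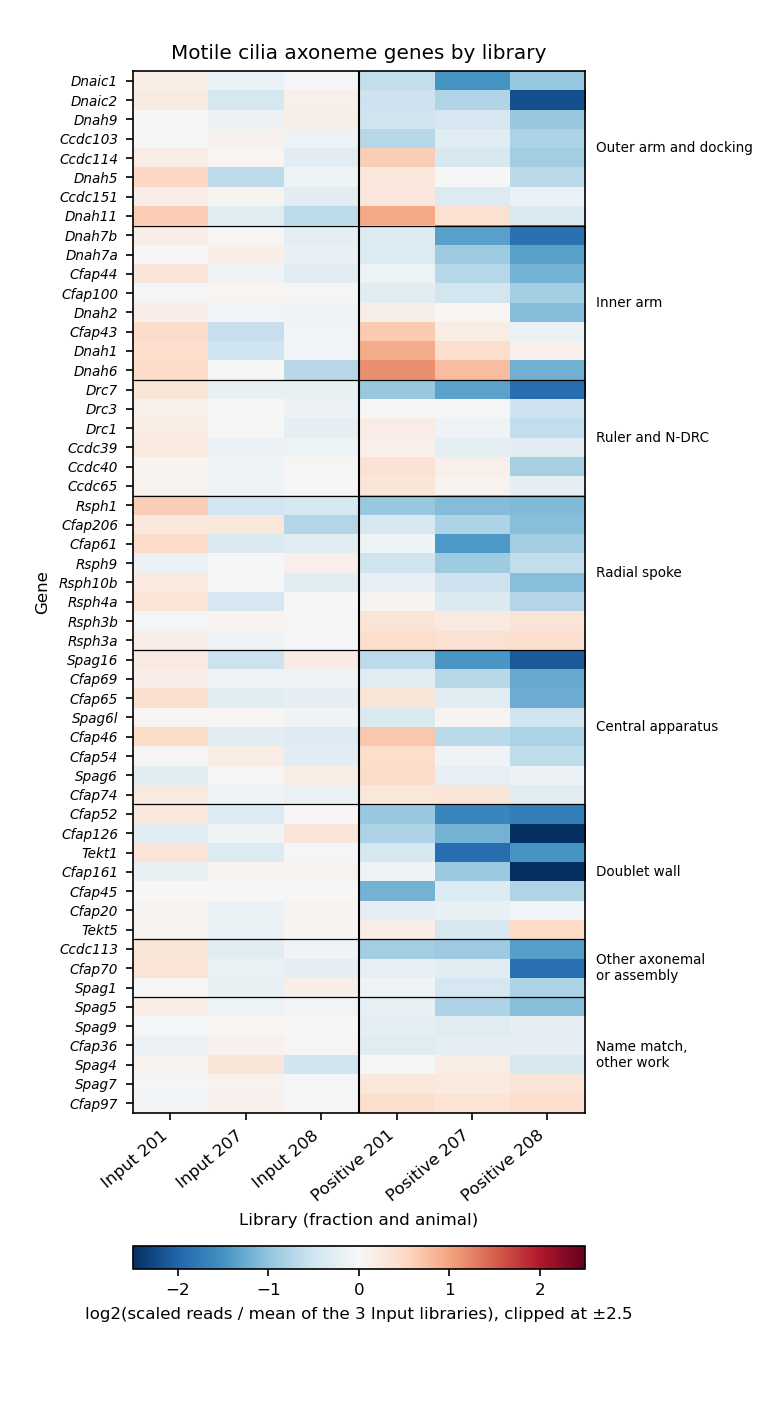
Level of each of the 54 genes (rows, grouped by role) in each of the 6 libraries (columns), as log2 of scaled reads over the mean of the 3 Input libraries, clipped at ±2.5. The deepest blue cells stand in the Positive column of animal 208, the library with the lowest Positive value for 39 of the 54 genes.

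The 54 genes were spread over 17 chromosomes, with 12 (22.2%) on chromosome 11, where 8.14% of the protein-coding genes tested lie. A cluster stood on chromosome 8 (mm10), with Drc7 from 95055103 to 95078141, Cfap20 from 95420249 to 95434869 and Ccdc113 from 95534085 to 95558890. Drc7 and Ccdc113 fell in Positive and Cfap20 gave -0.16 (adjusted p = 0.205). Shared promoter letters were searched because transcription of many motile cilia genes is driven by RFX factors, which bind X-box sites, and by the forkhead factor FOXJ1. RefSeq (GRCm38.p6) gave a window from 250 bases before to 50 bases after the start for 48 of the 54 genes. The RFX half-site GTTGCC, on either strand, was in 17 of these 48 (35.4%), against 15.1% of the tested protein-coding genes and 14.1% of all genes with such a window. It was in 61.5% of the windows of other motile cilia genes and in 43.6% of those of primary cilium genes. The forkhead letters GTAAACA were in 2 windows, those of Cfap20 and Cfap43 (4.17%, against 3.08% of tested protein-coding genes and 4.05% of all genes with a window).

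The longer half-site GTTGCCAT, which contains the shorter, was in 4 of the 48 windows (8.33%, against 1.42% and 1.54%). It was in 15.4% of the windows of other motile cilia genes and in 1.82% of those of primary cilium genes. The 250 bases before a RefSeq start of these 4 genes are shown because they carry this longer match. It is written in capitals and as ATGGCAAC where it lies on the opposite strand. The windows lie at chr7:83794840-83795089 on the minus strand for Cfap161, chr16:44394549-44394798 on the plus strand for Cfap44, chr4:155408990-155409239 on the plus strand for Cfap74 and chr11:72361883-72362132 on the minus strand for Tekt1.
Cfap161: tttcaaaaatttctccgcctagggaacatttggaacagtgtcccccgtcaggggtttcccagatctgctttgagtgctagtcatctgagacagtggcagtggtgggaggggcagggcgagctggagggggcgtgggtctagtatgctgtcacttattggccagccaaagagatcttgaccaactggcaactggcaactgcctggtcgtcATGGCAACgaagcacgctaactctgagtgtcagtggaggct
Cfap44: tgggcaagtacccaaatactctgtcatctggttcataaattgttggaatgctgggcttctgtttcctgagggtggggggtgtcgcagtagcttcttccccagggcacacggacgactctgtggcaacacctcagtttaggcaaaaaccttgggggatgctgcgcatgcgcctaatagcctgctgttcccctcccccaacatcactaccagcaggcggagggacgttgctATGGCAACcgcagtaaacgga
Cfap74: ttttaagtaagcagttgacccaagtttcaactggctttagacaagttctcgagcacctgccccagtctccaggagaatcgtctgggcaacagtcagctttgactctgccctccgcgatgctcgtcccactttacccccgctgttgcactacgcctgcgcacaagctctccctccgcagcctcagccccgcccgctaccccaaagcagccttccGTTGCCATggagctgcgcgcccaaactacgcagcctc
Tekt1: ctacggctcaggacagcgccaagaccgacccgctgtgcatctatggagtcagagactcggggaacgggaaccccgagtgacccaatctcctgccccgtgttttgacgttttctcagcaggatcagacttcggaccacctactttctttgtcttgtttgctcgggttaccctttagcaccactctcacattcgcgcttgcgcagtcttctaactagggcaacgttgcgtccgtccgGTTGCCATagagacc
Read 5′ to 3′, the first capital stands 41, 21, 37 and 15 bases before the RefSeq start in that order. Tekt1 had 2 windows. The one shown lies inside the span of the counted gene, 72344722 to 72362442, and so belongs to another start. Tekt1 was lower in Positive, whereas Cfap161, Cfap44 and Cfap74 did not pass the test (log2 fold changes -1.14, -0.91, -0.61 and 0.13).

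The outer dynein arm is the main motor of the beat. Of its 8 genes, counting docking and attachment factors, 3 were lower in Positive and none was higher (median -0.34, or -0.089 over the 7 genes that passed the filter through both fractions). Dnah9, a heavy chain that carries the motor, had 386, 347 and 424 scaled reads in Input and 273, 287 and 199.8 in Positive. Every Positive value was under every Input value, and the log2 fold change was -0.60 ± 0.15 SE (adjusted p = 0.00545). The intermediate chains Dnaic1 and Dnaic2, which anchor the arm to the doublet, were lower too. Dnaic1 kept 50.9% of its Input mean (log2 fold change -0.98 ± 0.26 SE, adjusted p = 0.00922) and Dnaic2 50.9% (-0.97 ± 0.35 SE, adjusted p = 0.0388). In fits that each left out 1 of the 6 libraries, Dnah9 and Dnaic1 stayed called in all 6, and Dnaic2 lost its call without the Input of 201 or 208 or the Positive of 207 or 208 (adjusted p up to 0.127), and with limma. Its fold change was -0.62 without the Positive of 208, and Dnaic2 is 1 of the 7 genes that passed the filter through Input alone. The heavy chains Dnah5 and Dnah11 were not called, nor were the docking proteins Ccdc114 and Ccdc151 or the attachment factor Ccdc103, with log2 fold changes of -0.068, 0.41, -0.089, -0.057 and -0.58. For Ccdc103 the 3 Positive values, 29.9 to 41.8, all lay under the Input values of 47.2 to 55.4 even so (adjusted p = 0.0699).

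Inner arm dyneins shape the bend. Of 8 inner arm genes 3 were lower and none higher, with a median of -0.36 (-0.21 over the 7 that passed the filter through both fractions). Dnah7b, an inner arm heavy chain, had 124, 113 and 94.4 scaled reads in Input and 86.7, 42.8 and 30.3 in Positive. Both fractions were separate, with a log2 fold change of -1.05 ± 0.31 SE (adjusted p = 0.0145). Its close copy Dnah7a was at -0.83 (adjusted p = 0.0481), and reads of the copies may have been divided between them, so that the value of either is uncertain. Cfap100, which regulates inner arms, had 152, 162 and 153 scaled reads in Input and 129, 113 and 86.02 in Positive. It fell to 70.2% of Input (log2 fold change -0.51 ± 0.18 SE, adjusted p = 0.0331). Dnah7b lost its call without the Input of 201 or the Positive of 207 (adjusted p up to 0.0584), and its fold change was -1.59 without the Positive of 201. Cfap100 and Dnah7a stayed called only in the fit without the Positive of 201, with adjusted p up to 0.0978 and 0.144 in the others, and Dnah7a was not called by DESeq2.

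The other inner arm genes were not called, and 3 of them lay above 0. Dnah1 had 125, 65.7 and 88.2 scaled reads in Input and 176, 126 and 101 in Positive. It was higher in Positive within every animal although the fractions overlapped, and its log2 fold change of 0.53 ± 0.26 SE had an adjusted p of 0.109 (with the animal as a replicate block 0.54, adjusted p = 0.0309, which passed). Dnah6, named after its values were seen because it had the highest fold change of the members, had 92.0, 66.6 and 40.9 scaled reads in Input and 149.7, 113.7 and 29.0 in Positive, so that the animals disagreed, with animals 201 and 207 higher in Positive and 208 lower (log2 fold change 0.55 ± 0.44 SE, adjusted p = 0.329). The tether proteins Cfap43 and Cfap44, which hold 1 inner arm to the doublet, were not called, and the difference between them was not tested. Cfap44 had 207, 157 and 138 scaled reads in Input and 154, 102 and 73.8 in Positive and stood at -0.61 ± 0.24 SE (adjusted p = 0.0579, with the replicate block 0.00595, which passed). Cfap43 had 129, 62.95 and 89.7 scaled reads in Input and 148, 107 and 83.6 in Positive and stood at 0.28 ± 0.27 SE (adjusted p = 0.429). Dnah2 was at -0.21 and was not called.

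The 8 axonemal dynein heavy chains, outer and inner together, thus ranged from -1.05 to 0.55, with 3 lower and none higher. For all 8 the Positive of animal 208 was the lowest Positive library and the ratio of Positive to Input was lowest in 208. The median log2 ratio of the 8 was -0.12 in animal 201, 0.37 in 207 and -0.76 in 208.

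The ruler proteins Ccdc39 and Ccdc40 set the repeat along the doublet, and the N-DRC links doublets. Of these 6 genes 1 was lower and none higher (median -0.13). Drc7, an N-DRC subunit, had 438, 315 and 313 scaled reads in Input and 183, 141 and 95.95 in Positive. Of all members it had the smallest adjusted p, with every Positive value below every Input value and a log2 fold change of -1.34 ± 0.21 SE (adjusted p = 0.000215, at most 0.00221 in the 6 fits that left out 1 library). Its partners in the complex were not called. Drc1 had 242, 213 and 179 scaled reads in Input and 242, 198 and 138 in Positive, and Drc3 had 183, 169.6 and 153 scaled reads in Input and 168, 166 and 118 in Positive, with log2 fold changes of -0.13 ± 0.20 SE and -0.16 ± 0.17 SE (adjusted p = 0.604 and 0.466). Ccdc39 had 362, 277 and 279 scaled reads in Input and 332, 261 and 250.2 in Positive. These fractions overlapped (-0.12 ± 0.15 SE, adjusted p = 0.535), as they did for Ccdc40 (-0.033) and for Ccdc65, another N-DRC subunit (0.07).

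Radial spokes reach from the doublets to the central pair. Their 8 genes split, with 2 lower and 1 higher and a median of -0.61 (-0.55 over the 7 that passed the filter through both fractions). The spoke head proteins Rsph1 and Rsph9 were lower. Rsph1 had 232, 108 and 112 scaled reads in Input and 78.3, 70.7 and 70.1 in Positive. The Input of animal 201 stood well above the other Input libraries while the Positive libraries were close together (-1.04 ± 0.28 SE, adjusted p = 0.00855). Rsph9 had 261, 287 and 315 scaled reads in Input and 204, 154 and 187 in Positive, again with no overlap (-0.66 ± 0.15 SE, adjusted p = 0.00271). Both stayed called in all 6 fits that left out 1 library, but the fold change of Rsph1 shrank to -0.58 without the Input of 201.

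Rsph3a and Rsph3b, close copies of the gene of a spoke stalk protein, lay on the other side. Rsph3b had 313, 339 and 316 scaled reads in Input and 406, 376 and 402 in Positive. Every Positive value was above every Input value, and the gene was called higher (0.29 ± 0.11 SE, adjusted p = 0.046), but the call was lost in each of the 6 fits without 1 library (adjusted p 0.0628 to 0.126), with the replicate block (adjusted p = 0.0517), under total count scaling, with the authors' size factors, with DESeq2 and where the mean had to reach 100 scaled reads. Rsph3a had 122, 99.4 and 106 scaled reads in Input and 147, 142 and 146 in Positive, also without overlap (0.41 ± 0.16 SE, adjusted p = 0.0525). Reads of these copies may have been divided between them. The remaining spoke genes were not called, with log2 fold changes of -0.73 for Cfap206 and -0.70 for Cfap61, which sit at the spoke base, -0.55 for Rsph10b and -0.31 for Rsph4a, both of the spoke head. With the replicate block, Cfap206, Cfap61 and Rsph10b passed (adjusted p = 0.0454, 0.0469 and 0.0303). Rsph10b shares 10.5% of its exon bases with an overlapping gene on the same strand.

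The central apparatus holds the central pair and its projections. Of 8 genes 2 were lower and none higher (median -0.18, or -0.11 over the 7 that passed the filter through both fractions). Spag16, a central pair protein, had 41.6, 24.4 and 40.9 scaled reads in Input and 22.7, 13.01 and 8.31 in Positive. All Positive values were low and apart from Input (-1.27 ± 0.37 SE, adjusted p = 0.0145). Cfap69 had 259, 219 and 218 scaled reads in Input and 194, 143 and 96.97 in Positive, likewise without overlap (-0.68 ± 0.21 SE, adjusted p = 0.0185). Spag16 lost its call without the Input of 201 or 208 (adjusted p up to 0.0563), and Cfap69 without the Input of 201 (0.0766). Among the projection proteins, Cfap74 had 319.7, 256 and 242 scaled reads in Input and 334, 334 and 224 in Positive and was not called (0.13 ± 0.17 SE, adjusted p = 0.564). Cfap65 had 296, 185 and 192 scaled reads in Input and 277, 188 and 94.5 in Positive. Animal 201 was highest in both fractions, and the fractions overlapped (-0.27 ± 0.30 SE, adjusted p = 0.493). Cfap46, Cfap54 and the copies Spag6 and Spag6l gave log2 fold changes of -0.11, -0.034, 0.062 and -0.24, none called.

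Proteins of the doublet wall line the inside of the microtubules and seal their seams. In this group 4 of 7 genes were lower and none higher (median -0.91). Cfap126 and Cfap161 passed the filter through Input alone, and over the other 5 genes 3 were lower and the median was -0.71. Cfap52 had 87.8, 56.4 and 71.3 scaled reads in Input and 37.1, 23.2 and 21.8 in Positive. Of all members it had the lowest fold change, with 38.2% of Input left (-1.39 ± 0.28 SE, adjusted p = 0.00154), and it stayed called in all 6 fits that left out 1 library. Cfap126 had 40.8, 46.04 and 60.9 scaled reads in Input and 28.8, 21.6 and 6.23 in Positive (-1.38 ± 0.39 SE, adjusted p = 0.0124). Tekt1, a tektin and also a marker of ependymal cells, had 108, 68.5 and 83.95 scaled reads in Input and 63.9, 23.3 and 31.1 in Positive (-1.14 ± 0.33 SE, adjusted p = 0.0137). Cfap45 was steady in Input, at 92.4 to 93.6, and 41.0 to 73.6 in Positive (-0.71 ± 0.23 SE, adjusted p = 0.0244). In all 4 the fractions did not overlap. Cfap126 lost its call without the Input of 208 (adjusted p = 0.0533), Tekt1 without the Input of 201 or the Positive of 207 (up to 0.0682), and Cfap45 without any 1 Input library or the Positive of 201 (up to 0.0909).

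The most abundant axonemal gene among the members by scaled reads, Cfap20, belongs to the same group but was not called. Cfap20 seals the inner junction of the doublet and is used in primary cilia as well. It had 599, 521 and 603 scaled reads in Input and 489, 502 and 546 in Positive, with a log2 fold change of -0.16 ± 0.10 SE (adjusted p = 0.205). Tekt5 had 153, 129 and 150.1 scaled reads in Input and 162, 109.7 and 203 in Positive (0.13 ± 0.21 SE, adjusted p = 0.636). In neither gene were the fractions apart. Cfap161 was at -0.91 (adjusted p = 0.106).

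Among the last 3 axonemal or assembly genes, Ccdc113, which lies near the spokes and the N-DRC, fell to 49.1% of Input (-1.03 ± 0.26 SE, adjusted p = 0.00685) and stayed called in all 6 fits without 1 library. Spag1, a cytoplasmic factor that helps to assemble dynein arms, had 252, 219.8 and 280.0 scaled reads in Input and 233, 184 and 146 in Positive. It was lower in Positive in all 3 animals but not called (-0.42 ± 0.17 SE, adjusted p = 0.0676, with the replicate block 0.042, which passed). Cfap70 gave -0.59 (adjusted p = 0.227).

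**Figure D2:**
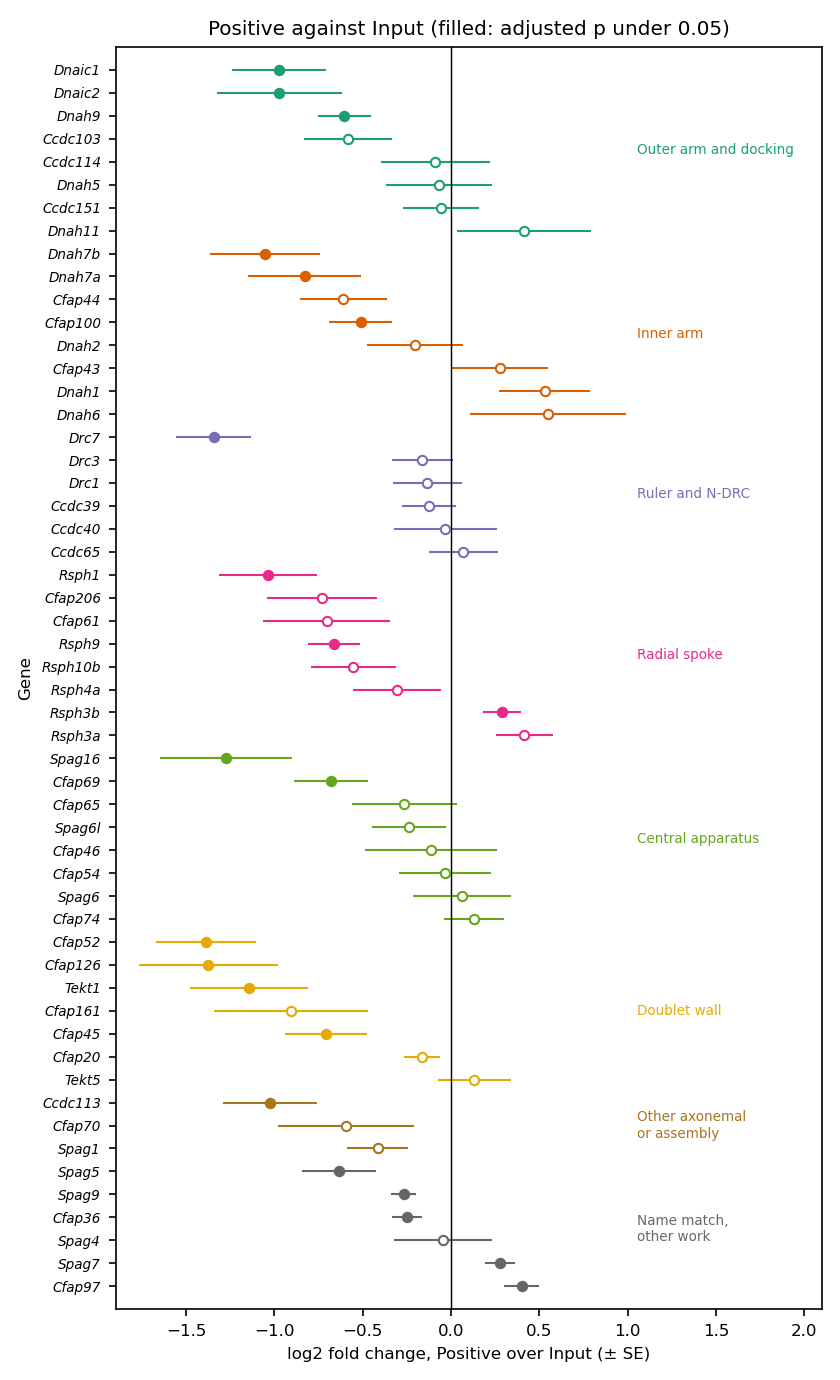
Log2 fold change of Positive over Input with its SE for the 54 genes, grouped by role and sorted within each group, with filled points for an adjusted p under 0.05. Filled points lie left of 0 in every axonemal group, and to the right of 0 only Rsph3b, Spag7 and Cfap97 are filled.

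The 6 name matches with other known work included the most abundant members, and 3 were lower and 2 higher (median -0.15). Spag9, a scaffold of signalling kinases and vesicle motors, had 5392, 5631 and 5538 scaled reads in Input and 4632, 4475 and 4639 in Positive (-0.27 ± 0.073 SE, adjusted p = 0.00898). Cfap36 had 1665, 2006 and 1886 scaled reads in Input and 1501, 1588 and 1589 in Positive (-0.25 ± 0.084 SE, adjusted p = 0.0294). Spag5, a protein of the mitotic spindle, had 185, 149 and 157 scaled reads in Input and 141, 96.1 and 78.5 in Positive (-0.64 ± 0.21 SE, adjusted p = 0.0262). These 3 were lower in Positive with no overlap of the fractions. Spag7 had 700.3, 759.8 and 689.6 scaled reads in Input and 861, 852 and 896 in Positive (0.28 ± 0.085 SE, adjusted p = 0.0171), and Cfap97 had 464, 527 and 467 scaled reads in Input and 656, 614 and 653 in Positive (0.40 ± 0.10 SE, adjusted p = 0.00474). Both were higher in Positive in every animal. Spag4, a nuclear envelope protein, was not called (-0.047). Spag9 and Cfap97 stayed called in all 6 fits without 1 library. Spag7 lost its call without the Input of 208 (adjusted p = 0.0798) and under total count scaling, Spag5 without the Input of 201 or 208 or the Positive of 207 or 208 (up to 0.101), and Cfap36 without the Input of 207 or 208 or the Positive of 201 or 207 (up to 0.15) and with limma.

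Levels per length were set beside each other, with length taken as all annotated exon bases of a gene over all its transcripts. Such values depend on which transcripts are annotated, so the order of genes is approximate. In Input, Cfap36, Spag9 and Spag7 had 675, 492 and 484 scaled reads per kilobase of exon. The highest axonemal genes among the members were Rsph9 with 179, Cfap20 with 129, Drc7 with 119, Rsph1 with 110 and Rsph3b with 104. The giant heavy chains ranged from 2.23 for Dnah11 and 2.30 for Dnah7a, the lowest of the members, to 24.2 for Dnah9. Fold changes were also set beside coding length. The 9 axonemal or assembly genes with under 1500 coding bases had a median log2 fold change of -0.91 with 5 lower, the 22 from 1500 to 3000 bases had -0.36 with 8 lower, and the 17 of 3000 bases or more had -0.11 with 3 lower. Over all genes tested in the same length ranges, 1646 of 7308, 710 of 4429 and 380 of 2036 were lower. Their medians were -0.028, 0.072 and 0.034. Over the 41 axonemal or assembly genes that passed the filter through both fractions the medians were -0.66, -0.27 and -0.051 in the same order. Spearman's rho between fold change and coding length was 0.28 over these 48 genes, 0.25 over the 41 and 0.17 over all 54 members. It was 0.11 over 13773 genes tested that had a coding length, but 0.49 over other motile cilia genes, 0.28 over primary cilium genes and 0.44 over choroid plexus markers. The points share the same 6 libraries, and rho with the mean level was 0.34 over the 48 genes and 0.11 over the 41. Within animals rho with coding length was 0.27 in 201, 0.30 in 207 and 0.010 in 208.

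**Figure D3:**
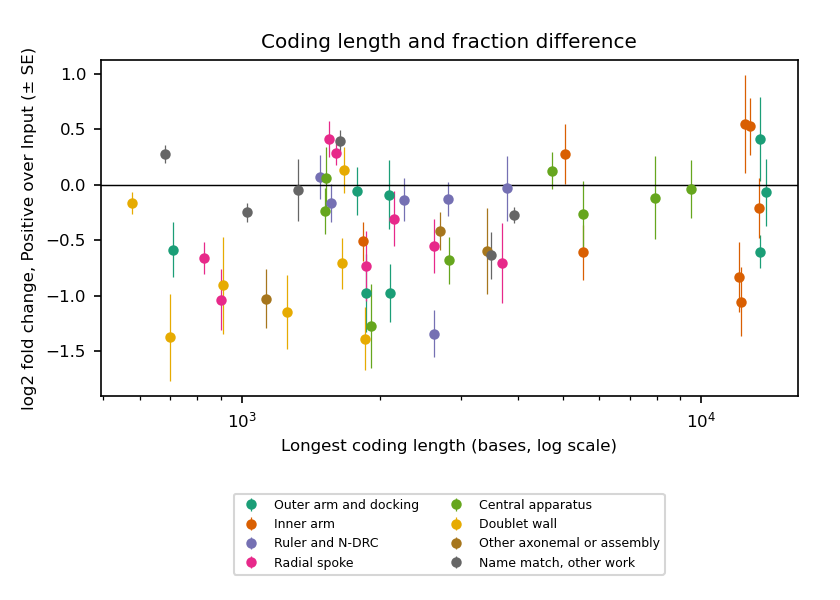
Log2 fold change of Positive over Input with its SE (vertical axis) against the longest annotated coding length in bases (horizontal log axis) for the 54 genes, coloured by role. Genes under 1500 bases are mostly below 0, and the longest dynein heavy chains lie on both sides of 0.

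The animals were not alike. The median log2 ratio of Positive to Input over the 54 genes was -0.22 in animal 201, -0.30 in 207 and -0.62 in 208 (mean -0.38 ± 0.21 SD, n = 3), where all genes tested gave -0.0097, -0.0060 and -0.0022. The Input of 201 was the highest Input library for 36 of the 54 genes (66.7%, against 37.4% of all genes tested), and the Positive of 208 was the lowest Positive library for 39 (72.2%, against 44.2%). That library was also the lowest Positive library for 85.7% of ependymal, 91.7% of astrocyte and 90.0% of oligodendrocyte markers, for all microglial and endothelial markers and for no neuronal marker. The 48 axonemal or assembly genes summed to 7278, 5938 and 6133 scaled reads in Input and to 6288, 5165 and 4277 in Positive. The median coefficient of variation over the 54 genes was 14.9% in Input and 28.5% in Positive, against 8.22% and 10.5% over all genes tested, whose median level was 412 scaled reads where that of the members was 92.3. Other motile cilia genes gave 16.6% and 27.2%, ependymal markers 23.4% and 48.4% and endothelial markers 15.5% and 34.9%.

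Markers of ciliated cells were read beside them. The ependymal list had 14 markers tested, of which 3 (21.4%, against 22.0% of all genes) were lower and 1 was higher. The list had a median of -0.51, with median ratios of -0.25, -0.58 and -1.17 in the 3 animals. It shares Tekt1 with the members and most of its genes encode ciliary proteins, so it is not separate from them. Its summed level ranged from 986.8 to 1400 in Input and from 647.7 to 1558 in Positive. Foxj1, the master regulator of motile ciliogenesis, had 331, 216 and 232 scaled reads in Input and 249.8, 161 and 105 in Positive. It was lower in Positive in all 3 animals, by most in 208, with overlapping fractions (-0.59 ± 0.26 SE, adjusted p = 0.0771, with the replicate block -0.63, adjusted p = 0.00471, which passed). Rarres2 and Ccdc153 gave -0.80 and -0.65 (adjusted p = 0.054 and 0.168). Fold changes of 11 of the 14 were below 0. The others were Fam183b at 0.41 and Odf3b at 0.0065, neither called and both named after their values were seen, and Tm4sf1. Tm4sf1, a gene also known from endothelial cells, had 182, 184 and 193 scaled reads in Input and 620.2, 423 and 289 in Positive and was higher (1.25 ± 0.22 SE, adjusted p = 0.000474). Over the 9 markers that passed the filter through both fractions 1 was lower, 1 was higher and the median was -0.44. The share lower was 11.1%, against 21.1% of all genes that passed this way. Without the Positive of 201, 7 of the list were lower.

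All 22 choroid plexus markers were called lower, with a median of -1.74 and median ratios of -1.58, -1.46 and -1.95 in the 3 animals, and their summed level was 32821 to 44240 in Input and 8996 to 10973 in Positive. Ttr, which encodes the thyroid hormone carrier of cerebrospinal fluid, had 33789, 25049 and 32546 scaled reads in Input and 7153, 6726 and 5816 in Positive (-2.21 ± 0.13 SE, adjusted p = 1.74e-08), and Clic6, Kl and Igf2 stood at -2.08, -1.28 and -0.99. The Input of 201 was the highest Input library for 18 of the 22. Choroid plexus genes thus kept a median of 29.8% of Input, ependymal markers 70.1% and the 54 members 83.1%. These medians include genes that passed the filter through Input alone. Over the 19, 9 and 47 genes that passed through both fractions the median log2 fold changes were -1.48, -0.44 and -0.21 in the same order. Astrocyte markers, 7 lower and 1 higher of 12, kept 76.2% of Input, with median ratios of -0.17, -0.28 and -0.81. How far cells of these types contributed to the members' values was not tested.

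**Figure D4:**
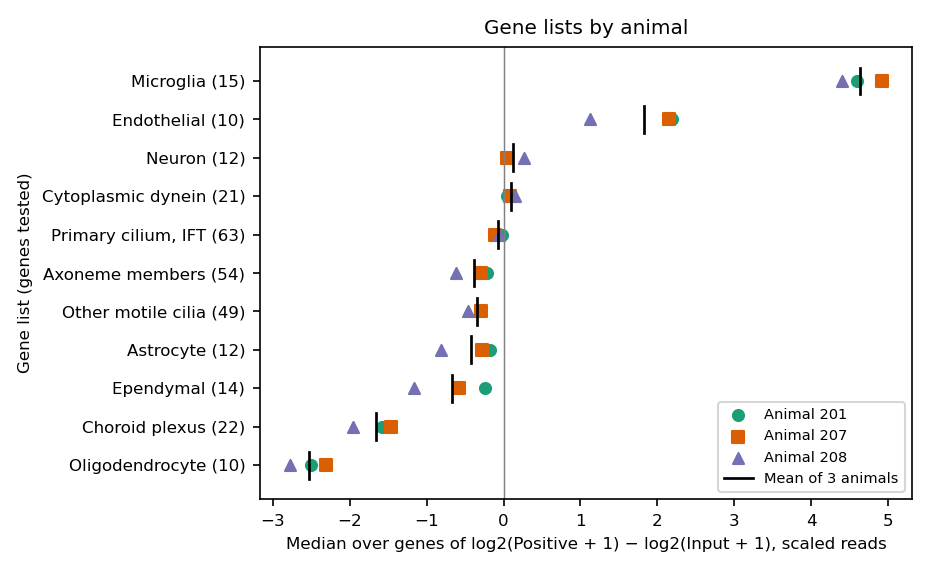
Median over the genes of each list of log2(Positive + 1) minus log2(Input + 1) in scaled reads, per animal (symbols) and as the mean of the 3 animals (bars), with the number of genes tested in brackets. The axoneme members lie between 0 and the ependymal list, far from the choroid plexus and oligodendrocyte lists, and animal 208 lies lowest for them. The ependymal list shares genes with the axoneme members and with the other motile cilia list.

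Of 49 motile cilia genes outside the name rule, 13 (26.5%, against 22.0% of all genes) were lower and 2 higher, with a median of -0.33. Of the 91 symbols on this list, 51 were in the table and outside the members. Foxj1, Ccdc153, Fam183b, Ak7, Ccdc146, Dynlrb2, Pifo, Odf3b and Enkur also stand on the ependymal list. The other motile cilia list is thus not separate from that list. Over the 38 of its genes that passed the filter through both fractions the median was -0.21. It was -0.0066 over all genes that passed this way. Rfx3, an RFX factor of ciliogenesis, had 1178, 1293 and 1404 scaled reads in Input and 798, 938 and 1070 in Positive, with no overlap (-0.47 ± 0.11 SE, adjusted p = 0.00373), and Rfx2 was at -0.41 (adjusted p = 0.183). Dnal1, a light chain of the outer arm, had 2155, 2117 and 2302 scaled reads in Input and 1730, 1784 and 2015 in Positive and was lower (-0.25 ± 0.082 SE, adjusted p = 0.0247). The tubulins Tuba1a and Tubb4b, which axonemes share with the cytoskeleton of other cells, gave 0.17 (adjusted p = 0.184) and 0.28 (adjusted p = 0.0217, called higher).

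Primary cilium and intraflagellar transport genes, the machinery that most cilia need, had genes called in both directions. Of 63, 9 (14.3%, against 22.0% of all genes) were lower and 4 (6.35%, against 23.9%) were higher. Both shares lay under those of all genes. The median was -0.084, with values from -0.71 for B9d1 to 0.85 for Bbs9, both named after their values were seen. Under total count scaling 18 were lower. Ahi1, Kifap3 and Kif3a, the last a subunit of the kinesin that carries cargo into cilia, gave -0.084, 0.12 and 0.013, none called, while Kif3b of the same motor was higher at 0.44 ± 0.084 SE (adjusted p = 0.00101). Cytoplasmic dynein and dynactin, the relatives of the axonemal motors that move cargo in every cell, had 3 of 21 genes (14.3%) lower and 6 (28.6%) higher (median 0.12). Their heavy chain Dync1h1 had 8741, 8007 and 8798 scaled reads in Input and 9049, 8232 and 7599 in Positive (-0.038 ± 0.088 SE, adjusted p = 0.754), and Actr1b gave 0.044. Dctn1 was higher (0.36 ± 0.081 SE, adjusted p = 0.00308) and the light chain Dynll2 lower (-0.59 ± 0.09 SE, adjusted p = 0.000175).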

How the data were processed

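RNA-seq of 3 Input and 3 Positive libraries was analysed. Libraries were directional and poly(A)-selected, and the authors aligned read pairs to mm10 in Strand NGS, counted reads per gene as estimated counts and kept genes with at least 20 reads in every library of 1 fraction. Normalized values were deposited on a log2 scale after DESeq scaling by the authors, relative to the Input median. How mates were counted was not settled. Rounded counts were tested in R 4.3.3 with the edgeR 4.0.16 quasi-likelihood test, unpaired, with median-of-ratios (RLE) scaling, over 15343 genes left after 45 were removed at 20 scaled reads, with Benjamini-Hochberg adjustment over all of them and a threshold of 0.05. The method was tested on simulated data with few changed genes and independent libraries. That setting was unlike these data, in which 46.0% of all genes tested were called. DESeq2 1.42.0 and limma 3.58.1 served as alternatives. Lengths came from GENCODE vM21 annotation of GRCm38. A pseudocount of 1 was used for ratios per animal.

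Members and gene lists were chosen with earlier results of these data known. Values in all libraries were given for the most abundant member of each role, the members called higher, the 6 lowest called lower and members whose mean reached 100 scaled reads. Dnah6 and a few list genes, marked in the text, were named after their values were seen. Of each further list, genes came from the 4 of highest mean, with Foxj1, Rfx2 and Rfx3. Both libraries of a number came from 1 animal, and their deviations from the fraction means correlated at 0.19, 0.058 and 0.12 in animals 201, 207 and 208. The pairing is taken from the animal numbers and not from these low correlations, which were not set against those between different animals.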

Additional observations from a re-analysis of the deposited data

How the results depend on the processing

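The paired fit, in which animal number was a replicate block, called 24 members lower and 3 higher, and 21 of the 22 calls remained. Under total count scaling 58.4% of all 7329 calls were lower, against 47.9% of 7051, and 24 members were lower and 1 higher. The number of members called lower was 18 to 21 with TMM factors, the authors' size factors, DESeq2, limma and no filter, 9 of 24 tested where the mean had to reach 100 scaled reads, and 10 to 22 on leaving out 1 library. The number called higher was 1 to 4 on leaving out 1 library, and the members' median was -0.53 to -0.22. In other lists, the genes called lower were 7 of the other motile cilia genes at a mean of at least 100, 18 of the primary cilium genes and 6 of the cytoplasmic dynein genes under total count scaling, and of ependymal markers 5 with DESeq2, 6 with the replicate block, 0 at a mean of at least 100 and 2 to 7 on leaving out 1 library.

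No called gene changed direction. Uncalled genes near 0 did. Under total count scaling Spag6 was at -0.013, Ccdc65 at -0.0057, Kif3a at -0.063 and Actr1b at -0.032. Kif3a was at -0.0037 with the authors' size factors, -0.0052 with limma and -0.014 at a mean of at least 100. On leaving out 1 library, log2 fold changes ran from -0.66 to 0.050 for Cfap65, -0.74 to 0.18 for Cfap46, -0.35 to 0.19 for Cfap54, -0.18 to 0.19 for Spag6, -0.087 to 0.34 for Tekt5, -0.41 to 0.087 for Dnah2, -0.24 to 0.14 for Spag4, -0.62 to 0.18 for Ccdc114, -0.31 to 0.28 for Dnah5, -0.24 to 0.071 for Ccdc151, -0.33 to 0.056 for Drc1, -0.26 to 0.015 for Ccdc39, -0.27 to 0.24 for Ccdc40, -0.064 to 0.20 for Ccdc65, -0.049 to 0.056 for Kif3a, -0.11 to 0.023 for Dync1h1 and -0.0015 to 0.094 for Actr1b. The cause was not tested. The small number of animals and the low levels of many members, whose median was 92.3 scaled reads, limit what these libraries can show.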

Other observations

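Some genes outside the members stood apart from their lists and were chosen after their values were seen. Armc3, a gene of motile cilia and sperm, had 31.6, 29.1 and 30.4 scaled reads in Input and 64.9, 77.7 and 52.96 in Positive in animals 201, 207 and 208 and was higher in Positive (log2 fold change 1.10 ± 0.25 SE, edgeR adjusted p = 0.00283), against the lower median of its list. Bbs9, a subunit of the complex that sorts membrane proteins of primary cilia, had 198, 192 and 176 scaled reads in Input and 348, 372 and 303 in Positive and was also higher (0.85 ± 0.13 SE, adjusted p = 0.000188). In the other direction, Dynlrb2, a dynein light chain of ciliated cells that passed the filter through Input alone, had 39.2, 32.03 and 28.3 scaled reads in Input and 6.18, 9.30 and 6.23 in Positive (-2.16 ± 0.34 SE, adjusted p = 0.000219). Tppp3, a tubulin-binding protein abundant in ciliated cells, had 563, 572 and 476 scaled reads in Input and 282, 254 and 173 in Positive (-1.18 ± 0.16 SE, adjusted p = 6.57e-05), and Nme5, a radial spoke protein, had 142, 113 and 134 scaled reads in Input and 67.2, 71.3 and 71.2 in Positive (-0.89 ± 0.18 SE, adjusted p = 0.00159). For each of these 5 genes the fractions did not overlap.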
